A study of Homo sapiens with 6 samples.

Results

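Metallothionein and zinc response genes were described across 6 RNA sequencing libraries of MDA-MB-231, a human triple-negative breast cancer cell line. The 10 genes were chosen by name: the metallothionein genes MT2A, MT1E, MT1X, MT1F, MT1G, MT1M and MT1L, the zinc-sensing transcription factor gene MTF1, the zinc exporter gene SLC30A1 and the zinc importer gene SLC39A10. Of these, 8 were matched among the 28979 gene IDs of the count tables, and MT1M and MT1L are not analysed here. The labels name 2 groups, Con and Ang, with 3 libraries in each, all from the same cell line, and give no genotype, dose or exposure time. Per the design text of the series, the cells were incubated with exosomes of normal or of hypertrophic cardiomyocytes, and the title names AC16, a human cardiomyocyte line. No label ties Con or Ang to either kind of exosome, so both groups are called by their labels. The list was drawn up with earlier results of these counts in view. The Ang against Con values of its members are therefore a description and support nothing.

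Metallothioneins are small cytosolic proteins rich in cysteine that bind zinc and copper, and also cadmium where it is present. Free zinc is sensed by MTF1, a zinc finger factor that binds metal response elements in DNA and switches on metallothionein genes and SLC30A1, whose product exports zinc from the cell. Importers of the ZIP family such as SLC39A10 bring zinc into the cytosol. Metallothionein genes also respond to glucocorticoids and to oxidative stress, and MT2A is generally the most abundant of them in human cells.

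The metallothionein genes lie side by side on chromosome 16 and code for nearly the same protein, which is why their coding sequences are shown. In the GENCODE 29 annotation of GRCh38, each of the 5 matched metallothionein members has 61 codons without the stop codon in 3 coding exons, and 20 of the 61 codons are for cysteine. In the sequences below, read 5′ to 3′ from the first ATG and without the stop codon, capitals mark the cysteine codons.
MT2A, chr16:56608656-56609351, plus strand: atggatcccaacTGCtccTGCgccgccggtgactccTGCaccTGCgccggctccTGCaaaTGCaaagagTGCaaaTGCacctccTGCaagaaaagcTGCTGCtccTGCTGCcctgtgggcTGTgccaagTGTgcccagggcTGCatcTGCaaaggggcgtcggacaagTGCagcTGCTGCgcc
MT1E, chr16:56625852-56626968, plus strand: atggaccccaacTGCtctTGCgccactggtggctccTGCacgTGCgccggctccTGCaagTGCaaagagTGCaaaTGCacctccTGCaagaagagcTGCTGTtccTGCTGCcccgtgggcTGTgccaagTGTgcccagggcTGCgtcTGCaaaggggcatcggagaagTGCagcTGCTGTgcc
MT1X, chr16:56682541-56684046, plus strand: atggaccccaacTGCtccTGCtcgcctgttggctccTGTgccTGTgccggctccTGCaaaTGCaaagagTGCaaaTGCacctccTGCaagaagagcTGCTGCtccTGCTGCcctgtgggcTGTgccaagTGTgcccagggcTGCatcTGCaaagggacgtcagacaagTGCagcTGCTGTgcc
MT1F, chr16:56658059-56659161, plus strand: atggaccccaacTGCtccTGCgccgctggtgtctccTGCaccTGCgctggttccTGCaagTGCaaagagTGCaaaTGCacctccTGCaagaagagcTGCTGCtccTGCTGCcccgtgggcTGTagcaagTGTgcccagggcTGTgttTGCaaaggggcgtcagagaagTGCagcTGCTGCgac
Over these 183 bases MT2A differed from MT1E at 14 positions (identity 92.3%), from MT1X at 14 and from MT1F at 16. MT1X and MT1F were the least alike of the members, with 21 differing bases (88.5%). MT1G, coded on the minus strand of the same cluster, differed from MT2A at 9 positions (95.1%).

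Short reads from such similar genes can be hard to assign. Of all stretches of 50 bases in the coding transcript of MT2A, 95.1% occurred in no transcript of another gene, and the share was 94.7% for MT1E and 96.4% for MT1F. It was 79.8% for MT1G and 54.9% for MT1X, and the rest occurred in other metallothionein genes and pseudogenes and, for MT1X, also in the noncoding gene AC026461.1. At 100 bases every stretch was unique for MT2A, MT1E, MT1F and MT1G, while MT1X kept 80.9%, with the rest in AC026461.1, which overlaps 18.1% of its exon bases on the same strand. The sources used here state neither the read length nor the handling of multiply mapped reads, so the counts of MT1X and MT1G are the least certain of the members.

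The strand composition of the libraries touches every level below. Over 250 pairs of a noncoding gene lying under the exons of a coding gene on the opposite strand, the noncoding gene held a median of 32.5 times as many counts per base. The strand setting of the counting is not known, so counts of coding genes, the members included, are uncertain as measures of their mRNA. None of the 8 matched members has annotated exon bases under exons of the other strand (0.0%). That does not make their counts more certain, as the strand setting is not known. Genes free of such exons held 21.7% (Con replicate 3) to 28.7% (Con replicate 2) of a library's counts. Con replicate 2 stood apart with a library median of the noncoding-to-coding ratio of 23.2. This ratio was 39.3 and 41.1 in Con replicates 1 and 3 and 32.9 to 35.4 in Ang. It also had the highest MT2A, MT1E and MT1X values of the Con group. Its part in the results was not tested beyond the values given without it and with the ratio as a term of the fit.

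MT2A was the most abundant member. Its gene is on chromosome 16 (56608199 to 56609497). Listed here and below from replicate 1 to 3, the Con libraries held 296, 446 and 156 counts and the Ang libraries 287, 324 and 348. As CPM, counts set relative to 1000000 of the library's TMM-scaled total (trimmed mean of M values), these were 62.5, 75.4 and 49.1 in Con and 84.2, 81.7 and 101 in Ang. All 3 Ang libraries lay above all 3 Con libraries, as for 3.62% of all tested genes. In bulk RNA, a change in how many cells express a gene and a change in RNA per cell cannot be told apart. The means were 62.3 ± 13.2 CPM in Con and 88.8 ± 10.2 CPM in Ang (SD, n = 3 each), a log2 fold change of 0.50 ± 0.19 (SE) or 1.42-fold, with a 95% interval of 1.09 to 1.83. Over all genes tested the difference did not pass the threshold (adjusted p = 0.999 by edgeR's quasi-likelihood test). The log2 fold change was 0.66 ± 0.17 without Con replicate 2 (adjusted p 0.0644 by edgeR).

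MT1E, at chromosome 16 (56625475 to 56627112), was second among the members by mean level per length of exon, with a range that overlapped that of SLC39A10, and lay below SLC39A10 and SLC30A1 in CPM in both groups. Of the 6 members tested it varied most between Con libraries (coefficient of variation 81.9% in Con and 17.0% in Ang). Its counts were 13, 94 and 20 in Con and 44, 65 and 63 in Ang. The scaled values were 2.75, 15.9 and 6.29 CPM in Con and 12.9, 16.4 and 18.2 CPM in Ang. Con replicates 1 and 3 lay below every Ang library, and Con replicate 2 lay among the Ang values. The group means were 8.31 ± 6.80 and 15.8 ± 2.69 CPM, with a log2 fold change of 0.89 ± 0.37, a 1.86-fold difference with a 95% interval of 1.12 to 3.06, and no call over all genes (adjusted p 0.999 by edgeR). Without Con replicate 2 the log2 fold change was 1.86 ± 0.44 and the adjusted p 0.0452. In that setting 0.269% of the 14867 genes tested were called, 40 in all, 0.135% were called with higher values in Ang, and 11.0% had an unadjusted p under 0.05. Without Con replicate 1 the log2 fold change of MT1E was 0.46 ± 0.37. With the log2 strand ratio as a term, an alternative chosen after seeing the data, MT2A was at 0.54 ± 0.15 and MT1E at 1.31 ± 0.37, and neither was called (adjusted p 0.306 for both by edgeR).

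**Figure D1:**
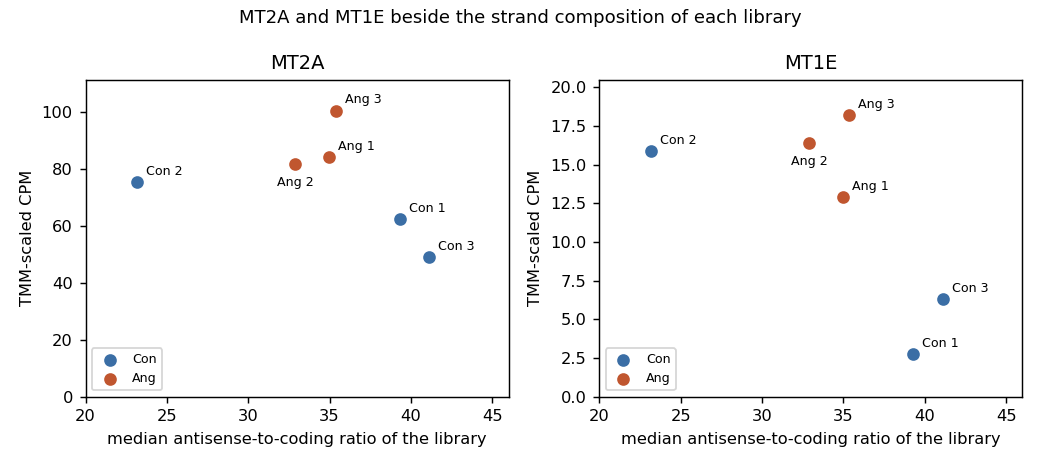
Scaled CPM of MT2A and MT1E (y axes, from 0) against the library's median ratio of counts per base of an antisense noncoding gene to those of the coding gene (x axis, starting at 20), with Con in blue and Ang in orange. Con replicate 2 stands apart at 23.2, Con replicates 1 and 3 lie at 39.3 and 41.1 with the lowest MT2A and MT1E values, and the Ang libraries lie between 32.9 and 35.4.

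MT1X and MT1F were counted at low levels. MT1X (chromosome 16, 56682424 to 56684196) had 12, 26 and 6 counts in Con and 5, 15 and 20 counts in Ang, or 2.53, 4.40 and 1.89 against 1.47, 3.78 and 5.78 CPM. The groups overlapped fully, with the lowest value in Ang replicate 1 and the highest in Ang replicate 3. Its log2 fold change of 0.29 ± 0.69 has an interval of -1.07 to 1.64, which spans 0. It was -0.18 without Ang replicate 3 and 0.71 without Con replicate 2.

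MT1F (chromosome 16, 56657694 to 56660698) did not reach the count filter and was not tested in the main comparison. Its counts were 0, 1 and 0 in Con and 3, 8 and 9 in Ang. Each Ang library thus held more than any Con library. Of all tested genes 3.62% separated in this way. The share among genes below the filter, such as MT1F, was not counted, so nothing is read from this order. Pooled over libraries and scaled for depth, the ratio of Con to Ang was 0.0392, with an exact binomial (Clopper-Pearson) interval of 0.000945 to 0.245 that covers counting error only. With the filter removed its fitted log2 fold change was 4.25 ± 1.78, which depends on the prior count at such low values, and its adjusted p was 0.865 by edgeR.

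MT1G (chromosome 16, 56666731 to 56668065) was near the limit of detection, with 0, 4 and 1 counts in Con and 0 in every Ang library. A count of 0 over the 3 Ang libraries allows up to 0.277 CPM. MT1A, a further gene of the cluster outside the 10, showed 4 counts, all in Con replicate 2. Both genes are too sparse for a comparison.

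**Figure D2:**
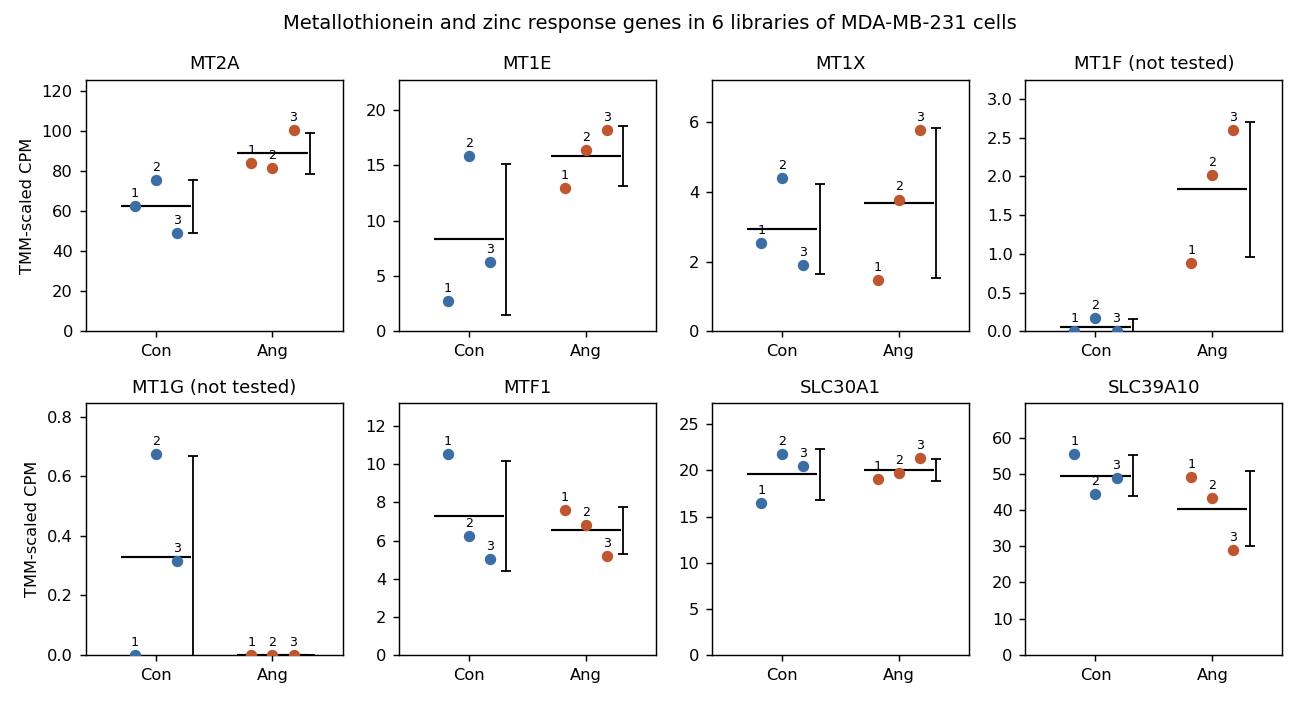
Scaled CPM (y axis, each panel from 0 on its own scale) of the 8 matched genes in Con (blue) and Ang (orange) libraries; points are libraries labelled by replicate number, horizontal lines are group means and vertical bars are 1 SD. MT2A and MT1F show no overlap between groups, with all Ang values above all Con values. This held for 3.62% of tested genes, a share that does not cover untested genes such as MT1F. Con replicate 2 of MT1E sits at 15.9 CPM among the Ang values, and SLC30A1 lies at 16.5 to 21.8 CPM in all libraries.

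Sums were taken over 6 metallothionein genes, all on chromosome 16 (MT2A, MT1E, MT1X, MT1F, MT1G and MT1A). MT1HL1, MT1P1 and MT1P3 on other chromosomes were also matched but left out, although MT1P3 had 58 counts in Con and 44 in Ang. The sums were 67.8, 97.2 and 57.6 CPM in Con and 99.5, 104 and 127 CPM in Ang. The highest Con value, in replicate 2, lay just under the lowest Ang value. MT2A forms most of this sum, so the order largely repeats that of MT2A. Of all tested genes, 3.62% had all 3 Ang libraries above all 3 Con libraries. The composition also differed between libraries. In Con, MT2A made up 92.2%, 77.6% and 85.2% of these counts, and in Ang 84.7%, 78.6% and 79.1%. MT1E made up 4.05% in Con replicate 1 (exact interval 2.17% to 6.83%), 16.3% in Con replicate 2 and 10.9% in Con replicate 3, against 13.0%, 15.8% and 14.3% in Ang. Put per 100 counts of MT2A, MT1E had 4.39 counts in Con replicate 1 (2.31 to 7.63) and 21.1 in Con replicate 2 (16.7 to 26.4), which is a wider gap than between any 2 Ang libraries, at 15.3 to 20.1. This ratio is taken within a library and so does not depend on the scaling between libraries. Its group means were 12.8 ± 8.34 in Con and 17.8 ± 2.38 in Ang, a difference smaller than the spread in Con.

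**Figure D3:**
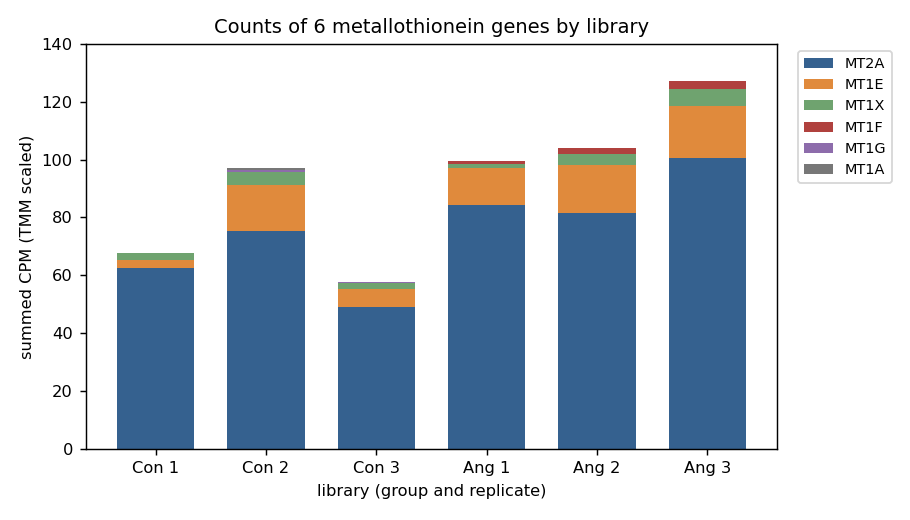
Summed scaled CPM (y axis, from 0) of 6 metallothionein genes in each library (x axis), with colours for the genes. MT2A forms most of every bar, the MT1E segment is thinnest in Con replicate 1, and the totals run from 57.6 CPM in Con replicate 3 to 127 CPM in Ang replicate 3.

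MTF1 itself, the sensor (chromosome 1, 37809567 to 37859620), was low and showed no difference beyond its spread. It had 10.6, 6.25 and 5.03 CPM in Con and 7.63, 6.81 and 5.20 CPM in Ang, so the highest and the lowest value were both in Con. The log2 fold change was -0.16 ± 0.46, and 0.20 without Con replicate 1. SLC30A1, the exporter that MTF1 activates (chromosome 1, 211571568 to 211578742), was the steadiest member. It had 16.5, 21.8 and 20.4 CPM in Con and 19.1, 19.7 and 21.4 CPM in Ang, and its highest library was only 1.32 times its lowest. The log2 fold change of 0.03 ± 0.29 has an interval of 0.691-fold to 1.52-fold. SLC39A10, the importer (chromosome 2, 195575977 to 195737702), had 55.5, 44.3 and 48.8 CPM in Con and 49.0, 43.4 and 28.9 CPM in Ang. Ang replicate 3, the library with the most MT2A, MT1E, MT1X and MT1F, had the least SLC39A10. The groups overlapped, and the log2 fold change was -0.29 ± 0.22, or -0.10 without Ang replicate 3.

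Of the 6 members that passed the count filter, 0 were called by edgeR at an adjusted p under 0.05, where 0.0% of the 14547 tested genes were called. The unadjusted p of edgeR was under 0.05 for 2 members, MT2A and MT1E, and for 3.4% of all tested genes. Both members had higher values in Ang, as did 1.42% of all tested genes at that p. All 3 Ang libraries lay above all 3 Con libraries for 1 tested member, MT2A, and for 3.62% of all tested genes. All 3 lay below for 0 members and 4.54% of genes. As the members were named with such values known, nothing is read from these counts. The median log2 fold change of the 6 was 0.16, beside -0.01 for all tested genes.

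Levels between genes were compared per kilobase (kb) of annotated exon. MT2A had 58.2 CPM per kb over all libraries, above 91.8% of tested genes, and MT1E 11.5, above 72.6%. SLC39A10 followed at 6.50, SLC30A1 at 3.62, MT1X at 1.87 and MTF1 at 0.862, the last above 9.10% of tested genes. MT1F and MT1G were lower still. In every library MT2A was above MT1E's highest value, and the lowest SLC39A10 value was above the highest of SLC30A1. The ranges of MT1E and SLC39A10 overlapped, as did those of each neighbouring pair from SLC30A1 down. The lengths join all annotated exons, which for MT2A gives 1299 bases against 786 in its coding transcript, so values per kb of mRNA would be higher.

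Promoter sequence was examined for the metal response element, the site MTF1 binds, in the members with a RefSeq promoter in the reference used. Its core was searched as TGCACNC and TGCGCNC, with N for any base, on both strands of the 250 bases before each RefSeq start (GRCh38.p14). The 2 patterns differ at a fixed base and cannot match at the same place on a strand. Promoters of MT2A, MT1X, SLC30A1, MTF1 and SLC39A10 were matched, the last with 2 starts. Those of MT1E, MT1F and MT1G were not analysed here. MT2A held 7 matches, MT1X 4 and SLC30A1 1, while MTF1 and both SLC39A10 windows held 0. The SLC39A10 windows begin at 195656708 and 195656976, inside its GENCODE 29 gene, which begins at 195575977. Among 35116 RefSeq windows of that length, 24.8% held at least 1 match, 0.370% at least 4 and 0.0313% at least 7. A match describes letters and does not show binding.

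The 7 matches of MT2A are shown with up to 9 bases on each side, with positions from the RefSeq start, and capitals mark the matched core. Longer stretches are left out because the window (56608334 to 56608583) lies wholly within annotated exon bases. The joined exons of the GENCODE 29 gene cover its whole span from 56608199 to 56609497 (1299 bases). All 7 matches thus lie in annotated exon.
MT2A at -246, chr16:56608334-56608353, plus strand: ccgcTGCACCCagccccttc
MT2A at -168, chr16:56608407-56608431, plus strand: ccgcggcccGTGTGCAgagccgggt
MT2A at -153, chr16:56608422-56608446, plus strand: agagccgggTGCGCCCggcccagtg
MT2A at -139, chr16:56608436-56608460, plus strand: ccggcccagTGCGCGCggccgggtg
MT2A at -88, chr16:56608487-56608511, plus strand: gcgcggggcGTGTGCAggcagcgcc
MT2A at -54, chr16:56608521-56608545, plus strand: cggggctttTGCACTCgtcccggct
MT2A at -8, chr16:56608567-56608583, plus strand: ttgccgcgcTGCACTCc
For MT1X the 204 bases upstream of its first annotated exon, and for SLC30A1 the 250 bases before its RefSeq start, are printed in the direction of the gene with the matches in capitals. The RefSeq start of SLC30A1 lies upstream of its GENCODE 29 gene. MT1X held 4 matches, and the 1 match of SLC30A1 lies 49 bases before its RefSeq start. The bases directly before the GENCODE genes of MT2A, SLC30A1 and SLC39A10 were not searched, so the numbers of matches are not like for like.
MT1X, chr16:56682220-56682423, plus strand: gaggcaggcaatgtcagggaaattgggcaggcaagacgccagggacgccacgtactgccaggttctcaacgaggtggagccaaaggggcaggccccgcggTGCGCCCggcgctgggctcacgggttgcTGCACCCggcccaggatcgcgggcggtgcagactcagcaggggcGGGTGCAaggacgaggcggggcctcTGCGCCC
SLC30A1, chr1:211579162-211579411, minus strand: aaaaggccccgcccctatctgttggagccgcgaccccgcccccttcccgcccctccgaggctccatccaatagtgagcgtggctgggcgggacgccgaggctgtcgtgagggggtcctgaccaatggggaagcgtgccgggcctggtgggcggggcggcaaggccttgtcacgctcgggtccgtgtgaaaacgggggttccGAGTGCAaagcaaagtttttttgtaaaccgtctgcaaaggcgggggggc
MT2A and MT1X, with 7 and 4 matches, had log2 fold changes of 0.50 ± 0.19 and 0.29 ± 0.69, and SLC30A1 with 1 match had 0.03 ± 0.29. None of these passed the threshold, so the number of matches is set beside them as a description only.

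Other genes were taken from lists of zinc transporters, metal-responsive or MTF1-linked genes, copper proteins and glucocorticoid targets, the last because metallothionein genes also respond to glucocorticoids. In each list 0 genes passed the adjusted threshold and 0 had an unadjusted p under 0.05 by edgeR, where 0.0% and 3.4% of all tested genes did. Of the other zinc exporters of the ZnT family, 5 of 9 were tested, 3 with positive and 2 with negative log2 fold changes and a median of 0.01. SLC30A9, most abundant of these per kb, had 52.4 ± 6.66 CPM in Con and 47.4 ± 4.77 in Ang. SLC30A7, which loads zinc into the secretory pathway, had 21.2 ± 1.69 and 26.6 ± 5.72 CPM (0.32 ± 0.27). SLC30A4 had a log2 fold change of -0.37 ± 0.25, which was 0.01 without Con replicate 3, where it stood at 56.6 CPM against 21.4 to 34.9 CPM in the other libraries.

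Of the other zinc importers of the ZIP family, 10 of 13 were tested, with 3 positive and 7 negative values and a median of -0.06. SLC39A7, which releases zinc from the endoplasmic reticulum, was the most abundant per kb and had 137 ± 22.2 CPM in Con and 136 ± 7.41 in Ang. SLC39A5 was lower in all 3 Ang libraries, at 2.05, 1.01 and 2.60 CPM against 5.07, 2.87 and 4.40 in Con. This rests on 55 counts in Con and 20 in Ang (-1.12 ± 0.74), and 4.54% of all tested genes likewise lay wholly below in Ang. SLC39A14, an importer of zinc and iron, had 35.5 ± 3.08 and 29.5 ± 6.54 CPM, and SLC39A13 had 12.5 ± 6.05 and 17.0 ± 3.14.

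Among 12 other metal-responsive or MTF1-linked genes, all tested, 6 values were positive and 6 negative, with a median of -0.0035. TXNRD1, the thioredoxin reductase gene and the most abundant of them per kb, had 358 ± 37.4 CPM in Con and 360 ± 39.4 in Ang. GCLC, a gene of glutathione synthesis, had 16.7 ± 4.76 and 13.6 ± 3.55 CPM, PLAC8 had a log2 fold change of -0.36 ± 0.36 and LMNA, the lamin A/C gene, one of 0.22 ± 0.18. PLAC8 was at -0.04 without Con replicate 3, and LMNA at 0.49 without Con replicate 2 and at 0.08 when Con replicate 1 was dropped.

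The copper list of 12 genes, all tested, had 4 positive and 8 negative values with a median of -0.10. It also holds MTF2, a Polycomb protein gene that does not handle copper (-0.11 ± 0.29). CCS, the copper chaperone for superoxide dismutase, had 2.75, 4.56 and 2.83 CPM in Con and 5.28, 5.80 and 6.35 in Ang, with no overlap (0.76 ± 0.59). COMMD1, a gene of copper export and protein sorting, separated the other way, with 3.17, 3.72 and 2.83 CPM in Con and 2.35, 2.02 and 2.31 in Ang (-0.55 ± 0.74); it was named after its values were seen. Of all tested genes 3.62% lay wholly above and 4.54% wholly below in Ang. ATOX1, the chaperone that carries copper to the secretory ATPases, had 8.44 ± 1.74 and 12.3 ± 2.17 CPM (0.54 ± 0.38), and its groups overlapped. SOD1, the enzyme that CCS loads, had 79.7 ± 11.7 and 77.7 ± 6.19 CPM. SCO1, a mitochondrial copper protein gene, was at -0.44 ± 0.32, and at -0.20 without Ang replicate 3.

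Of 12 glucocorticoid response genes 10 were tested, with 6 positive and 4 negative values and a median of 0.03. ERRFI1, a feedback inhibitor of the EGF receptor and the most abundant per kb, had 185, 248 and 185 CPM in Con and 246, 256 and 276 in Ang. Its pattern resembled that of MT1E in that only Con replicate 2 reached the Ang values. The log2 fold change was 0.33 ± 0.17, and 0.49 ± 0.12 without Con replicate 2 (adjusted p 0.0487 by edgeR). FKBP5, a chaperone induced by glucocorticoid, had 18.0 ± 1.23 and 22.0 ± 2.79 CPM, and PER1 a log2 fold change of -0.56 ± 0.49, or -0.25 without Ang replicate 2.

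Of the 13 other metallothionein genes and pseudogenes listed, 4 were matched and 1 was tested. That was MT1P3, a pseudogene on chromosome 20 that can share reads with its relatives and has 29.9% of its exon bases under exons of the other strand. It had 4.02 ± 0.879 CPM in Con and 4.01 ± 1.23 in Ang (-0.02 ± 0.62).

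**Figure D4:**
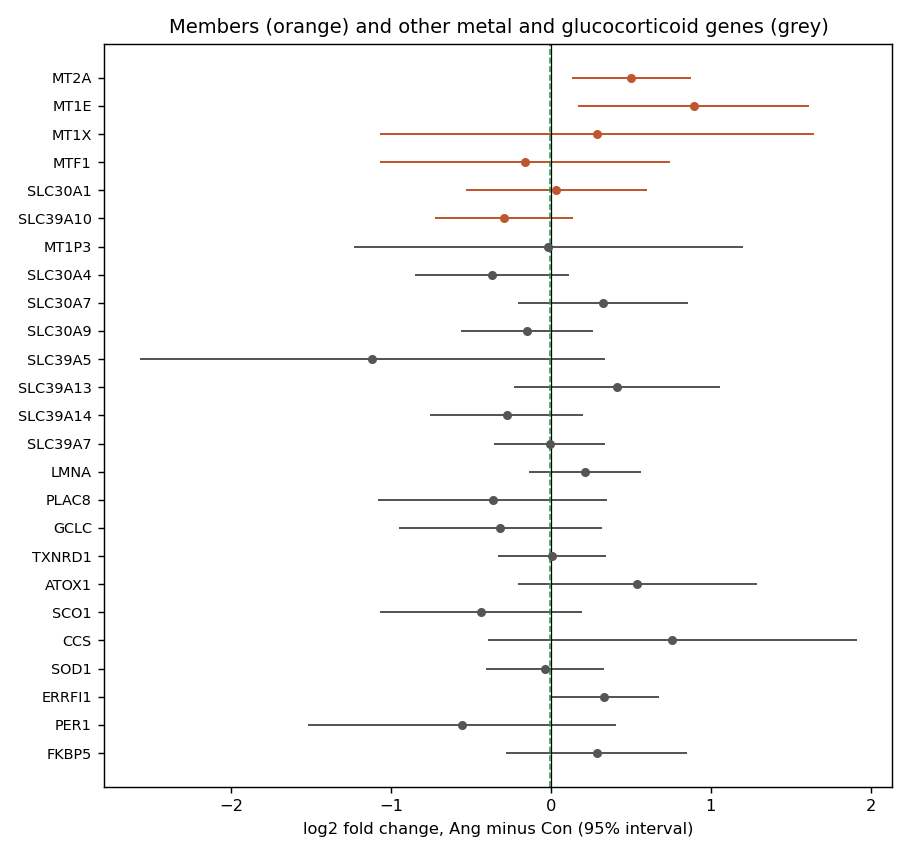
Log2 fold changes, Ang minus Con (x axis), with 95% intervals for the 6 tested members (orange) and 19 other metal and glucocorticoid genes (grey); the dashed line is the median of all tested genes, -0.01. The intervals are not adjusted for the number of genes, and those of MT2A and MT1E lie above 0.

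The genes most like MT2A were sought over the 6 libraries among the 6880 other genes that averaged 20 CPM or more, by Pearson's r of log2 CPM. ARPC2, an actin nucleation complex subunit, came first (r = 0.997), followed by ZC3HAV1, an antiviral zinc finger protein gene (0.982), PRDX6, a peroxiredoxin gene (0.978), and GRK6, a receptor kinase gene (0.976). ARPC2 ran from 99.4 CPM in Con replicate 3 to 132 CPM in Ang replicate 3, a narrower span than that of MT2A. Of the members, MT1E had r = 0.74 with MT2A, MT1X 0.56, SLC30A1 0.29, MTF1 -0.06 and SLC39A10 -0.70. All these genes come from the same 6 libraries and share their depth and strand composition, so the values are a description. ARPC2, ZC3HAV1, PRDX6 and GRK6 were also picked as the highest of 6880 correlations, each over only 6 libraries. Picking the highest of so many by itself favours high values of r, and by how much was not tested. Their r values are therefore not read as a link to MT2A.

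**Figure D5:**
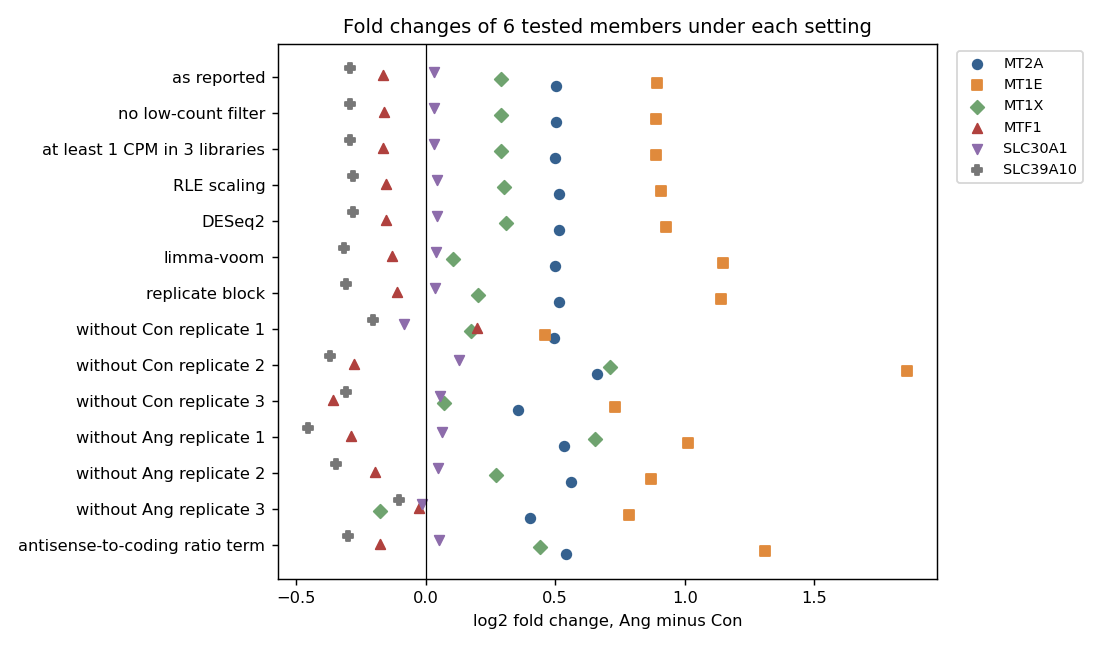
Log2 fold changes, Ang minus Con (x axis), of the 6 tested members under each way of processing the counts (y axis), except the strand ratio term with Con replicate 2 left out. MT2A (0.36 to 0.66) and MT1E (0.46 to 1.86) stay above 0, SLC39A10 (-0.45 to -0.10) stays below 0, and MT1X, MTF1 and SLC30A1 cross 0.

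Total counts were 3369212 to 5437190 per library. Whether replicates were separate cultures is not stated, so the p-values speak only of library-to-library spread, possibly technical. Of 13 genes typical of this mesenchymal line, 13 had counts, led by VIM at 980 CPM and CD44 at 462 CPM, with SPARC at 0.239 CPM, and their sum ran from 2630 to 3511 CPM in Con and 3276 to 3476 CPM in Ang. The estrogen and progesterone receptor genes ESR1 and PGR and the cadherin gene CDH1 were under 1 CPM on average, while ERBB2 and 3 keratin genes were above 100. Of 13 cardiomyocyte markers 9 were matched, with sums of 205 to 310 CPM in Con and 214 to 258 CPM in Ang. TTN alone averaged 244 CPM and NPPA 9.51 CPM, and every other matched marker averaged under 1 CPM. Exons of the other strand cover 15.5% of the exon bases of TTN, 25.5% of those of NPPA and 24.4% of those of VIM. Fibroblast markers (5 of 8 matched) summed to 7.60 to 11.3 and 5.20 to 6.81 CPM, leukocyte markers (3 of 6) to 2.11 to 7.44 and 2.31 to 5.29 CPM, and endothelial markers (4 of 5) to 15.4 to 19.1 and 11.1 to 14.4 CPM. Their part in the results was not tested.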

How the data were processed

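The authors deposited, for each of 6 libraries, unnormalized counts by Ensembl gene ID; per the labels' protocol, mRNA was taken with poly-T beads. Per the submitters' processing notes, HTSeq 0.9.1 and DESeq 1.39.0 were used with GRCh38; the aligner was not given in the sources used here, nor were annotation release and strand setting. No row was a summary row (0 found). Symbols were found for 28918 of 28979 IDs, and coordinates and exons came from GENCODE 29.

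The counts were tested with edgeR 4.0.16 (R 4.3.3): filterByExpr, TMM scaling, robust quasi-likelihood test of Ang against Con, Benjamini-Hochberg adjustment over 14547 genes, threshold 0.05. Depth of 3369212 to 5437190 counts means that 0 counts allow 0.552 to 0.890 CPM per library (3 counts); this covers counting error only. Libraries were not identical, with a chi-square per gene of 3.60 to 12.8 within groups. On simulated counts for the 14547 genes of this comparison the test called 45.1% of 2-fold and 81.8% of 4-fold changes, and 5.51% of its calls were false. The simulation drew each gene independently around its mean, so no simulated library stood apart as Con replicate 2 did. These rates may therefore not hold for the real libraries. Other-strand exons were found with bedtools 2.31.1. In noncoding and coding pairs, the noncoding gene had at least 90% of its exon bases under the coding gene, which had at least 300 counts.

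All members were reported. From each other list up to 3 genes with the smallest p and the most abundant per kb were named, plus the 4 genes most like MT2A. MT1A, MTF2 and COMMD1 were named outside this rule, COMMD1 after its values were seen. Members and lists were chosen with earlier results of these data known. Alternatives were other filters and scaling, DESeq2 1.42.0, limma-voom (limma 3.58.1), a replicate block, each library left out, and the strand ratio term.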

Additional observations from a re-analysis of the deposited data

How the results depend on the processing

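Under RLE scaling, DESeq2, limma-voom, no low-count filter, or 1 CPM required in 3 libraries, 0 genes were called, and DESeq2 counted 411 at an unadjusted p under 0.05. Leaving out 1 library gave 0 to 40 called genes, 40 when Con replicate 2 was dropped and 1 for Con replicate 1. The unadjusted count, 494 at first, ran from 408 to 1633 when 1 library was left out, 1633 without Con replicate 2, and was 827 with no filter, where more genes were tested. With the strand ratio term, added after seeing the data, 4 genes were called and 942 had an unadjusted p under 0.05. With that term and Con replicate 2 left out, 1 was called and 773 were counted. For these shifts the cause was not tested.

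Of 84 values of the 6 tested members, 79 kept only their sign and stayed uncalled, 4 crossed 0 uncalled and 1 passed the threshold (MT1E without Con replicate 2). For the 19 other genes picked by rule from the lists the numbers were 242 of 266, 23 and 1 (ERRFI1 without Con replicate 2). MTF2 and COMMD1 are not among these genes. Sizes moved more: SLC39A10 ran from -0.98 to -0.10, and MTF1 was at -1.46 with the strand ratio term and without Con replicate 2. MT1E was 0.46 ± 0.37 without Con replicate 1 and MT2A 0.36 ± 0.19 without Con replicate 3. With the strand ratio term and without Con replicate 2, MT1E was at 2.53 ± 1.16.

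The replicate block gave 0 called genes and 574 at an unadjusted p under 0.05, with MT1E at 1.14 ± 0.37 (adjusted p 0.805 by edgeR) and MT2A at 0.51 ± 0.17. Same-numbered libraries correlated at 0.037, 0.068 and 0.036 and other pairs at -0.070 to 0.030, so each library correlated best with its own number, which is a hint only. The share of MT1E in metallothionein counts was 12.1% to 14.7% leaving out 1 library. Few counts (44 in Con and 40 in Ang) and the spread between libraries both enter the interval of MT1X, and their parts were not separated.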
